A study of Homo sapiens with 15 samples.

Results

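Expression of 10 imprinted growth genes, H19, IGF2, CDKN1C, DLK1, MEG3, PEG3, PEG10, MEST, GRB10 and PLAGL1, was followed by bulk RNA sequencing in 15 libraries of differentiating H1 cells, an established line of human embryonic stem cells. The genes were chosen by symbol, each symbol matched 1 row, and they are 10 of 60605 genes in the table. Every culture had received CHIR99021, which activates the WNT pathway, on day 0 and insulin on day 1, and the libraries of days 0, 1 and 2 precede the division into 3 arms. NP-ctrl cells remained undisturbed in their wells with no WNT inhibitor (NP, not passaged). NP-IWP2 cells also remained in place and were given IWP2, which blocks secretion of WNT proteins, from day 2, with no supplements from day 5 on. Passaged cells were detached with EDTA on day 2 and replated on Matrigel at a lower density with no WNT inhibitor. The paper also states that a ROCK inhibitor was added in its differentiation experiments after its survival tests. Replating may therefore not be the only difference between passaged and NP-ctrl cells. Each arm has 1 library on each of days 3, 5, 7 and 10. All are of 1 cell line, and no value below has a replicate culture behind it. Whether the libraries come from 1 culture series is not stated in the sample titles or the paper. Total counts ranged from 13254723 to 20250115 per library. The 8 pluripotency markers summed to 2151 FPKM (counts scaled by exonic length and library total) on day 0. They summed to 51.5, 46.3 and 66.4 FPKM on day 10 in NP-ctrl, NP-IWP2 and passaged libraries. Most of this passaged sum was TDGF1, at 48.1 FPKM, where NP-ctrl had 0.98 FPKM and NP-IWP2 8.55 FPKM. SOX2 was also highest in the passaged library, at 4.89 FPKM. LIN28A, DNMT3B, DPPA4 and ZFP42 were lowest there, and NANOG and POU5F1 were at 0. The 10 cardiomyocyte markers summed to 2.60 FPKM on day 0 and, for the arms in the same order, to 562, 1735 and 4177 FPKM on day 10.

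An imprinted gene is transcribed mainly or wholly from a single parental copy, under control of a region whose methylation was set in the egg or the sperm and so differs between the parental copies. Many imprinted genes act on fetal growth, and paternally expressed members such as IGF2, DLK1, MEST, PEG3, PEG10 and PLAGL1 tend to have maternally expressed counterparts such as H19, MEG3 and CDKN1C, often in the same domain. IGF2 is a secreted growth factor and H19 is a long non-coding RNA, and in embryonic endoderm and mesoderm both use enhancers that lie beyond H19. The insulator protein CTCF binds a control region upstream of H19 on the maternal copy and keeps these enhancers from IGF2 there. Total counts do not separate the parental copies, so no allelic ratio was measured here.

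H19 (ENSG00000130600) lies on the minus strand of chromosome 11 at chr11:1995176-2001470 of hg38, and IGF2 (ENSG00000167244) on the same strand at chr11:2129112-2141238, with 127.6 kb between them. Short stretches around the H19 start are printed because the 2 genes are read below as neighbours. A fixed form of the CTCF core motif, 14 letters of which the 6th and the 9th may be any base, was searched on both strands of chromosome 11. It had 21 matches, 5 of them in the span from H19 to IGF2. These 5 were all on the minus strand and all within 1549 bases of the H19 start. Matches to this form occur in 0.134% of 13454 windows of 10000 bases on the chromosome and in 0.0655% of 35116 promoter windows. CTCF sites that depart from its fixed letters were not counted, so these shares do not give the frequency of CTCF sites. The matches are printed 5′ to 3′ on the minus strand with the motif in capitals, and matches 1 to 3 lie between the genes, whereas matches 4 and 5 lie in an intron of H19 as annotated in GENCODE. The H19 start is taken here as the upper end of its annotated span. Which start these cells used was not measured, so this split of the matches rests on annotation alone.
Match 1, chr11:2003011-2003040: agaagtggCCGCGCGGCGGCAGtgcaggct
Match 2, chr11:2002606-2002635: ggaagtggCCGCGCGGCGGCAGtgcaggct
Match 3, chr11:2002205-2002234: aaaagtggCCGCGCGGCGGCAGtgcaggct
Match 4, chr11:2000772-2000801: ggaagtggCCGCGTGGCGGCAGtgcaggct
Match 5, chr11:1999960-1999989: ggaagtggCCGCGCGGCGGCAGtgcaggct
These letters describe the reference sequence and say nothing of binding in these cells.

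H19 also hosts the hairpin of miR-675 at chr11:1996759-1996831, whose mature forms are shown because their precursor is the H19 transcript. The seed, bases 2 to 8, is in capitals.
hsa-miR-675-5p: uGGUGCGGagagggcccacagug
hsa-miR-675-3p: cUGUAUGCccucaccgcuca
The 2 seeds differ. The hairpin had 0 counts in all 15 libraries, as had the miR-335 hairpin in MEST. Both lie inside their host genes, and how reads over shared bases were assigned is not given in the sources used here. These counts therefore do not show that either miRNA was absent.

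H19 and IGF2 were both near 0 before the arms were divided, high in the static arms from day 5 and low in passaged cells. H19 had 0.06, 0 and 0 FPKM on days 0, 1 and 2, which are at most 3 counts. In NP-ctrl it then had 2.74, 10.1, 34.4 and 28.5 FPKM on days 3, 5, 7 and 10. In NP-IWP2 it had 0.90, 10.4, 13.3 and 8.72 FPKM on the same days. In passaged cells it had 0.98, 1.29, 1.24 and 0.16 FPKM, so that its day 10 library held 7 counts, where NP-ctrl held 1112 and NP-IWP2 400. From day 5 the passaged libraries did not overlap with either static arm.

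IGF2 had 0, 0.01 and 0.09 FPKM on days 0 to 2. It had 2.56, 35.2, 79.6 and 112 FPKM in NP-ctrl, the highest value of the series for this gene being on day 10. In NP-IWP2 it had 2.86, 31.4, 23.2 and 25.9 FPKM. In passaged cells it had 5.73, 2.16, 4.61 and 1.35 FPKM. Passaged cells thus held the most IGF2 of the arms on day 3, 2.24-fold above NP-ctrl (95% interval 1.93 to 2.62), and the least on days 5, 7 and 10. On day 10 NP-ctrl exceeded passaged cells 82.7-fold in IGF2 (69.5 to 99.2) and 180-fold in H19 (86.9 to 448). These and all later intervals are exact Clopper-Pearson 95% intervals on the counts and cover counting error only.

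Over days 3 to 10 the highest level was 215 times the lowest for H19 and 83.0 times for IGF2, whereas the ratio of IGF2 to H19 per length of exon stayed between 0.933 and 8.53. It was 0.933 in NP-ctrl on day 3 (0.753 to 1.16) and 3.50, 2.32 and 3.93 on days 5, 7 and 10. In NP-IWP2 it was 3.20, 3.03, 1.75 and 2.97 from day 3 to day 10. In passaged cells it was 5.83, 1.67, 3.71 and 8.53, the last with an interval of 4.02 to 21.6. The intervals of passaged and NP-ctrl cells did not overlap on days 3, 5 and 7, passaged cells having the higher ratio on days 3 and 7 and the lower on day 5.

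**Figure D1:**
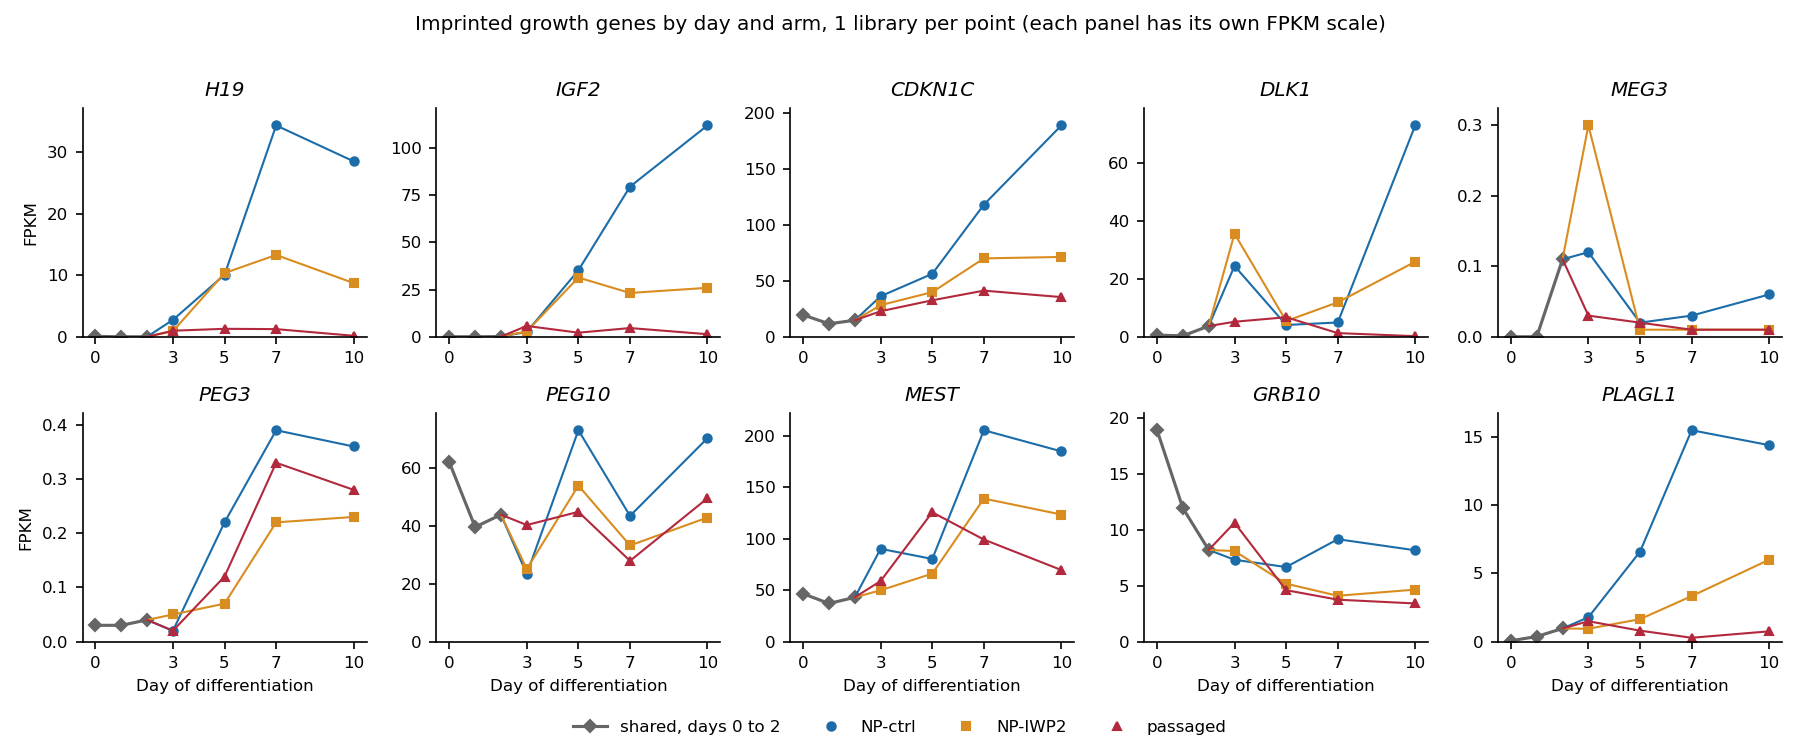
FPKM (vertical axes, each panel with its own scale) of the 10 genes against day of differentiation, with 1 library per point, grey diamonds for the shared days 0 to 2 and blue circles, orange squares and red triangles for NP-ctrl, NP-IWP2 and passaged cells. H19, IGF2, CDKN1C and PLAGL1 spread widely between arms on days 7 and 10 with NP-ctrl on top, while DLK1 peaks on day 3 and again on day 10 in static cells and GRB10 is highest on day 0.

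**Figure D2:**
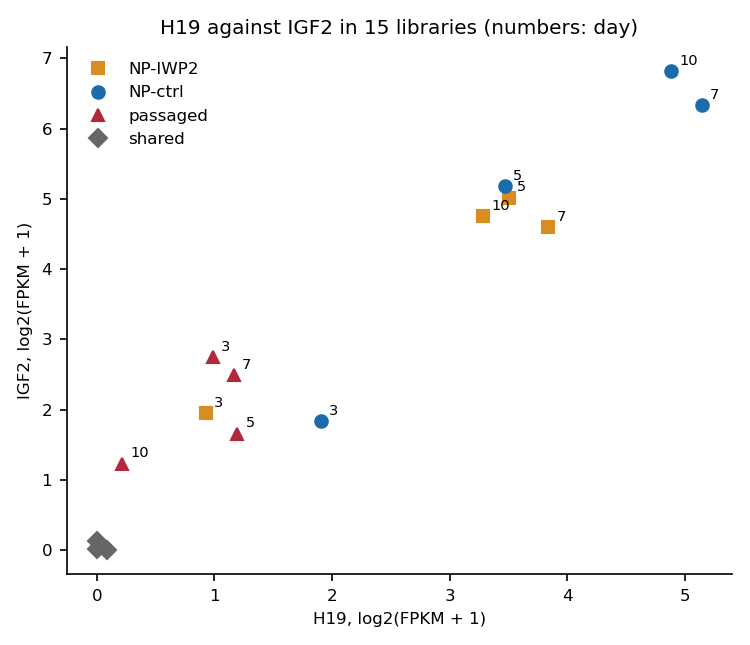
IGF2 against H19, both as log2(FPKM + 1), in the 15 libraries, with the day beside each point of an arm. Passaged libraries of days 3 to 10 lie near the day 3 libraries of the static arms, and NP-ctrl days 7 and 10 lie at the upper right.

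CDKN1C and PLAGL1 were both highest in NP-ctrl on each of days 3 to 10 and lowest in passaged cells on days 5, 7 and 10. CDKN1C (chr11:2883213-2885775, minus strand, 742 kb from IGF2 in the adjoining KCNQ1OT1 domain) encodes p57, an inhibitor of cyclin-dependent kinases that restrains growth. It was already present on days 0 to 2 at 19.5, 11.6 and 14.7 FPKM. It had 36.2, 56.2, 118 and 189 FPKM in NP-ctrl on days 3, 5, 7 and 10, against 28.2, 39.9, 70.1 and 71.3 FPKM in NP-IWP2 and 22.8, 32.6, 41.2 and 35.4 FPKM in passaged cells. NP-ctrl was the highest and passaged the lowest on each of the 4 days, with a day 10 difference between them of 5.33-fold (5.03 to 5.66).

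PLAGL1, a zinc finger transcription factor at chr6:143940300-144064599 on the minus strand, had 0.06, 0.37 and 0.96 FPKM on days 0 to 2. It reached 1.78, 6.58, 15.5 and 14.4 FPKM in NP-ctrl and 0.94, 1.64, 3.33 and 5.99 FPKM in NP-IWP2. In passaged cells it had 1.49, 0.80, 0.28 and 0.75 FPKM, 54.7-fold below NP-ctrl on day 7 (39.6 to 78.0) and 19.1-fold below on day 10 (15.6 to 23.6). The day 3 difference between passaged and NP-ctrl cells was small, and its sign depended on the scale, at -0.16 on log2(FPKM + 1) and 0.03 on TPM, which scales each library to the same sum over length-corrected counts.

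The promoter windows of H19 and PLAGL1 are given since these 2 genes passed the test for the arm difference described below. They come from RefSeq on GRCh38.p14, span an annotated start on the minus strand, and are printed 5′ to 3′ with CG dinucleotides, the target of DNA methylation, in capitals.
H19, chr11:2001217-2001516: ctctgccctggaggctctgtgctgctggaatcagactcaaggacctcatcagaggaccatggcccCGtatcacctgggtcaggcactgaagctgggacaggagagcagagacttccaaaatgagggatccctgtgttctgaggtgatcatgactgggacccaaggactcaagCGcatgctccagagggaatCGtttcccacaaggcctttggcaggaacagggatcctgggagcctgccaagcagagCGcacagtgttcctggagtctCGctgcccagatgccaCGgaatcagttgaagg
PLAGL1, chr6:144008210-144008509: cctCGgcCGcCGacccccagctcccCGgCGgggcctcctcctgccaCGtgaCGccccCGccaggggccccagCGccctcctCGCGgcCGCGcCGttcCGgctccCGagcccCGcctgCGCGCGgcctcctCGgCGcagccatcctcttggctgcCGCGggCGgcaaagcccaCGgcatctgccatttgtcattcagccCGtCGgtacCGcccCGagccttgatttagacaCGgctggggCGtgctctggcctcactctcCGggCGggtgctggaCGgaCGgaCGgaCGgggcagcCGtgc
The H19 window holds 6 CG dinucleotides and the PLAGL1 window 39, against a median of 14 over 35116 windows of the same length. The H19 window spans the upper end of the H19 row, between CTCF matches 3 and 4. Which H19 start these cells used was not measured, so this window may not be the promoter in use. The PLAGL1 window is 1 of 5 annotated for that gene and the richest in CG, the others holding 2, 3, 3 and 31, and the one with 2 also has 2 matches to TATAAA. It is printed here as it is also the start of HYMAI, a non-coding RNA that lies inside PLAGL1 and whose highest count was 13. Neither printed window matches TATAAA on either strand, a motif found in 11.5% of windows, nor the form of the CTCF core motif searched above. The table of promoters matched 5 of the 10 genes, and IGF2, CDKN1C, DLK1, PEG3 and PEG10 were not matched.

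DLK1 and MEG3 share a domain on chromosome 14 but differed in level and course. DLK1 (chr14:100725705-100738224, plus strand), a membrane protein related to the ligands of Notch, had 0.56, 0.31 and 3.70 FPKM on days 0 to 2. In NP-ctrl it went from 24.4 FPKM on day 3 to 4.06 and 4.93 FPKM on days 5 and 7 and to 73.0 FPKM on day 10. In NP-IWP2 it went from 35.6 FPKM to 5.43, 11.9 and 25.9 FPKM. In passaged cells it had 5.18, 6.74, 1.26 and 0.20 FPKM, the last with 16 counts. On day 10 it was 364-fold below NP-ctrl (224 to 638) and 129-fold below NP-IWP2 (79.4 to 227). By point value these were the widest day 10 ratios to the static arms among the 10 genes. Their intervals overlapped those of H19, 86.9 to 448 for NP-ctrl and 26.4 to 137 for NP-IWP2.

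MEG3 (chr14:100779410-100861031, plus strand), a long non-coding RNA that begins 41.2 kb beyond the end of DLK1, had no library above 0.30 FPKM. That value was in NP-IWP2 on day 3, with 95 counts, and NP-ctrl on day 3 and the shared day 2 library had 0.12 and 0.11 FPKM with 47 and 50 counts. MEG3 has the longest exonic length of the 10 genes, 23224 bases, which lowers its FPKM for a given count. H19 in NP-IWP2 on day 3 had 0.90 FPKM with 35 counts. MEG3 had 3 to 19 counts in the libraries of days 5 to 10. The highest MEG3 counts were thus in libraries of days 2 and 3, around the first DLK1 peak, whereas on day 10, with DLK1 at its highest in NP-ctrl, MEG3 had 19 counts there and 4 in NP-IWP2.

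PEG10, MEST and GRB10 were expressed before differentiation and followed their own courses. PEG10 (chr7:94656325-94669695, plus strand) derives from a retrotransposon and is needed in the placenta. It had 62.1, 39.7 and 44.0 FPKM on days 0 to 2. NP-ctrl had 23.4, 73.2, 43.6 and 70.5 FPKM and NP-IWP2 25.1, 54.0, 33.3 and 43.0 FPKM. Passaged cells had 40.4, 45.0, 28.0 and 49.7 FPKM, so that on day 3 passaged cells had 1.73 times the PEG10 of NP-ctrl, and its highest value over days 3 to 10 was 3.13 times its lowest.

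MEST (chr7:130486171-130506465, plus strand), which encodes a protein of the hydrolase fold and is a marker of embryonic mesoderm, had 46.5, 37.1 and 43.0 FPKM on days 0 to 2. It reached 90.2, 80.4, 206 and 185 FPKM in NP-ctrl and 49.9, 66.1, 139 and 124 FPKM in NP-IWP2. In passaged cells it peaked earlier, with 58.9, 126, 99.2 and 69.6 FPKM, and stood 1.57-fold above NP-ctrl on day 5 but 2.66-fold below it on day 10 (2.57 to 2.75).

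GRB10 (chr7:50590063-50793462, minus strand), an adaptor that dampens signalling from insulin and IGF receptors, was the only one of the 10 genes with its highest level on day 0. It had 18.9, 11.9 and 8.20 FPKM on days 0 to 2, then 7.32, 6.67, 9.16 and 8.17 FPKM in NP-ctrl, 8.10, 5.18, 4.10 and 4.65 FPKM in NP-IWP2 and 10.6, 4.60, 3.75 and 3.41 FPKM in passaged cells. Passaged cells had the most GRB10 of the arms on day 3 and the least on days 5, 7 and 10.

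PEG3, a zinc finger protein gene at chr19:56810077-56840728 on the minus strand, stayed between 0.02 and 0.39 FPKM with at most 51 counts. It had 0.03, 0.03 and 0.04 FPKM on days 0 to 2 and 0.36, 0.23 and 0.28 FPKM on day 10 in NP-ctrl, NP-IWP2 and passaged libraries. The day 10 difference between passaged and NP-ctrl cells, 1.26-fold (0.816 to 1.97), was not detectable at this depth.

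Genes were compared between single libraries on log2(FPKM + 1) and counted as changed when they differed by at least 1, over the 21206 genes that reached an FPKM of 1 in some library. MEG3 and PEG3 did not reach that level, which leaves 8 genes, and this scale understates changes of low genes. Between days 0 and 2, before the arms, DLK1 was higher and GRB10 lower, against 11.7% of all genes changed. From day 2 to day 10, 6 genes changed in NP-ctrl (26.0% of all genes) and 6 in NP-IWP2 (29.5%), all of them higher, namely H19, IGF2, CDKN1C, DLK1, MEST and PLAGL1. In passaged cells 4 changed (27.7% of all genes), with IGF2 and CDKN1C higher and DLK1 and GRB10 lower.

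Against NP-ctrl, passaged cells had 1 changed gene on day 3 (8.49% of all genes). There were 3 on day 5 (8.16%), 7 on day 7 (12.6%) and 7 by day 10 (17.4%), and each of them was lower. The day 3 gene was DLK1, and on days 7 and 10 PEG10 was the exception among the 8. NP-IWP2 against NP-ctrl gave 0 for day 3 (4.15% of all genes) and 1 for day 5 (2.97%). It gave 4 for day 7 (7.26%) and 5 for day 10 (9.35%), all lower but DLK1 on day 7, which was higher in NP-IWP2. Passaged against NP-IWP2 gave 1, 2, 4 and 4 genes, all lower, beside 8.7%, 7.51%, 6.69% and 10.1% of all genes. The 4 genes of days 7 and 10 were H19, IGF2, DLK1 and PLAGL1. These counts describe pairs of libraries and carry no test.

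The full order NP-ctrl above NP-IWP2 above passaged held for 1 of the 8 genes at day 3, for 5 at day 5 and for 7 at both day 7 and day 10. Over all 21206 genes it held for 14.2%, 17.7%, 26.4% and 26.3% on these days. On day 7 DLK1 departed from it and on day 10 PEG10 did. GRB10 on day 7 was in this order, but passaged and NP-IWP2 cells did not differ there beyond counting error, with a ratio of 1.10 (0.977 to 1.23). Because each arm and day has 1 library, the spread between cultures that these orders should be read against is unknown.

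Arm effects were then fitted with edgeR's quasi-likelihood test on the counts of the 12 arm libraries, blocked by day, and p-values were adjusted by Benjamini-Hochberg over 21206 genes. This fit takes its spread from how much an arm difference varies between days, and not from replicate cultures of an arm and day. H19, PLAGL1 and CDKN1C, which are 3 of the 8 genes, had lower counts after passaging than in NP-ctrl, against 4.4% of all genes called in either direction. The fitted log2 change was -3.81 for H19 (SE 0.76, adjusted p = 0.0189), -3.06 for PLAGL1 (SE 0.71, adjusted p = 0.0360) and -1.31 for CDKN1C (SE 0.23, adjusted p = 0.0105). IGF2 had a change of -3.22 that did not pass the test (SE 1.10, adjusted p = 0.130), and it was the highest in passaged cells on day 3 and the lowest afterwards. DLK1 had -2.23 (SE 1.10, adjusted p = 0.306), and the fitted values of GRB10, MEST and PEG10 were -0.60, -0.53 and -0.21 with adjusted p-values of 0.189, 0.346 and 0.683. The median of the 8 genes was -1.77, and that of all genes -0.0025.

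The calls rest on few days. Without day 7, 0 of the 8 genes were called by edgeR, with 3 at an unadjusted p under 0.05, and without day 5 CDKN1C alone was called. Over all genes the 933 calls became 133 and 283 in these fits, and without day 7 the log2 changes were still -3.43 for H19, -2.33 for PLAGL1 and -1.28 for CDKN1C. Without day 3, H19, PLAGL1, CDKN1C, IGF2 and GRB10 were called beside 2373 of all genes, and IGF2 then had a log2 change of -4.72. limma on log2(FPKM + 1) and edgeR on the libraries of NP-ctrl and passaged cells alone each called 0, with 5 and 4 genes at an unadjusted p under 0.05 and 163 and 109 calls over all genes. DESeq2 called H19, PLAGL1, CDKN1C and IGF2, which are 4 of the 8 genes, beside 2150 of all genes. IGF2 had a log2 change of -3.24 in DESeq2 (adjusted p = 0.0143).

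NP-IWP2 against NP-ctrl gave 0 calls among the 8 genes in edgeR, beside 0.0189% of all genes, and 4 genes had an unadjusted p under 0.05. DESeq2 and limma also called 0, whereas edgeR without the filter called CDKN1C, H19 and PLAGL1, and with the 2 compared arms alone PLAGL1 (adjusted p = 0.00256). The fitted log2 changes ranged from -1.72 for PLAGL1 to -0.03 for DLK1, with -1.17 (SE 0.63) for H19, -1.28 (SE 0.87) for IGF2 and -0.81 (SE 0.22) for CDKN1C, and the median was -0.71. Passaged against NP-IWP2 also gave 0 calls, beside 1.33% of all genes, and 2 genes had an unadjusted p under 0.05. H19 had a log2 change of -2.65 in this contrast (SE 0.74, adjusted p = 0.135), was called by DESeq2, and by edgeR without day 3 or without the filter. Both contrasts with NP-ctrl use the same 4 control libraries, so their values are shown side by side only.

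**Figure D3:**
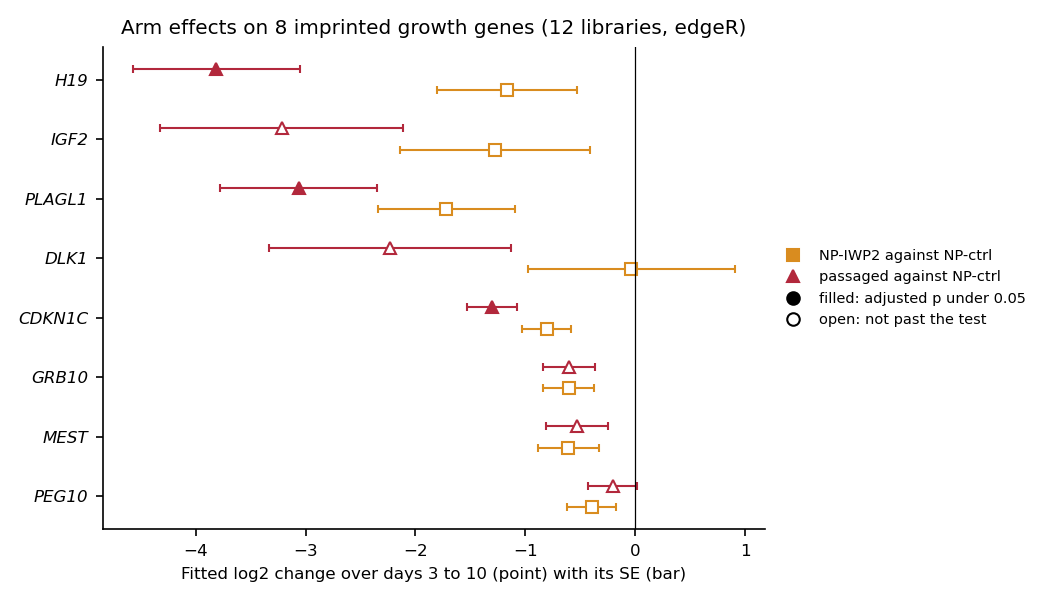
Fitted log2 change over days 3 to 10 (horizontal axis, point) with its standard error (bar) for the 8 genes above the filter, for passaged (red triangles) and NP-IWP2 (orange squares) against NP-ctrl. Filled symbols have an adjusted p under 0.05 and are H19, PLAGL1 and CDKN1C in passaged cells, and every fitted value lies below 0.

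Change over time was tested as day 10 against day 3 with arm as a block. CDKN1C, PEG10 and MEST were higher on day 10, which are 3 of the 8 genes against 35.0% of all genes called. The log2 change was 1.58 for CDKN1C (SE 0.26, adjusted p = 0.00103), 0.94 for PEG10 (SE 0.26, adjusted p = 0.0151) and 0.98 for MEST (SE 0.32, adjusted p = 0.0338). GRB10 had -0.72 (SE 0.27, adjusted p = 0.0617). H19 and IGF2 had 1.92 and 1.70 with adjusted p-values of 0.110 and 0.313. Their passaged libraries on day 10 were below those of day 3, and their static libraries above. With the passaged arm left out, 6 genes were called beside 7262 of all genes, and these included H19, IGF2 and PLAGL1. Without NP-IWP2 only CDKN1C was called, beside 2235 of all genes. Without NP-ctrl CDKN1C and GRB10 were, beside 5619.

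Whether the arms parted over time was tested as a difference of slopes on log2 of the day, in log2 units per doubling of the day. IGF2 had a slope of 3.11 (SE 0.87) in NP-ctrl, 1.53 (SE 0.88) in NP-IWP2 and -0.70 (SE 0.68) in passaged cells. PLAGL1 had 1.86 (SE 0.45), 1.62 (SE 0.40) and -0.59 (SE 0.36), and H19 had 2.18 (SE 0.81), 1.81 (SE 0.94) and -0.71 (SE 0.88). CDKN1C had positive slopes in all arms, 1.39, 0.91 and 0.56. For passaged against NP-ctrl 0 of the 8 genes passed in edgeR, beside 0.448% of all genes, with 5 at an unadjusted p under 0.05. PLAGL1 came to a slope difference of -2.45 (SE 0.57, adjusted p = 0.0833), IGF2 to -3.81 (SE 1.09, adjusted p = 0.125) and GRB10 to -0.94 (SE 0.26, adjusted p = 0.120), whereas DESeq2 called H19, IGF2, PLAGL1 and GRB10. For NP-IWP2 against NP-ctrl 0 genes passed, beside 0.0% of all genes, with 0 at an unadjusted p under 0.05 and 0 in DESeq2. For passaged against NP-IWP2 0 passed, beside 0.0377% of all genes, with 1 at an unadjusted p under 0.05, and DESeq2 called PLAGL1.

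The likeness between genes was described by Pearson correlations of log2(FPKM + 1), with no test, since libraries share a day or an arm with others. Over 15 libraries H19 and IGF2 had r = 0.969, and over the 12 libraries of days 3 to 10 centred on each day 0.953. H19, IGF2, PLAGL1 and CDKN1C formed 1 group with r from 0.87 to 0.97. MEST joined it over 15 libraries, with 0.911 to CDKN1C and 0.81 to H19, but less so within days, with 0.62 to H19 and 0.47 to IGF2. DLK1 had 0.49 to 0.57 with the members of this group and MEST over 15 libraries.

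PEG10 and GRB10 stood apart over 15 libraries, GRB10 with values from -0.42 (with MEST) to 0.203 (with PEG10). Within days GRB10 correlated positively with the other 7 genes, up to 0.883 with PLAGL1. Among the 28 pairs of the 8 genes, r ranged from -0.42 to 0.969 with a median of 0.516, and 10 pairs were above 0.7.

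**Figure D4:**
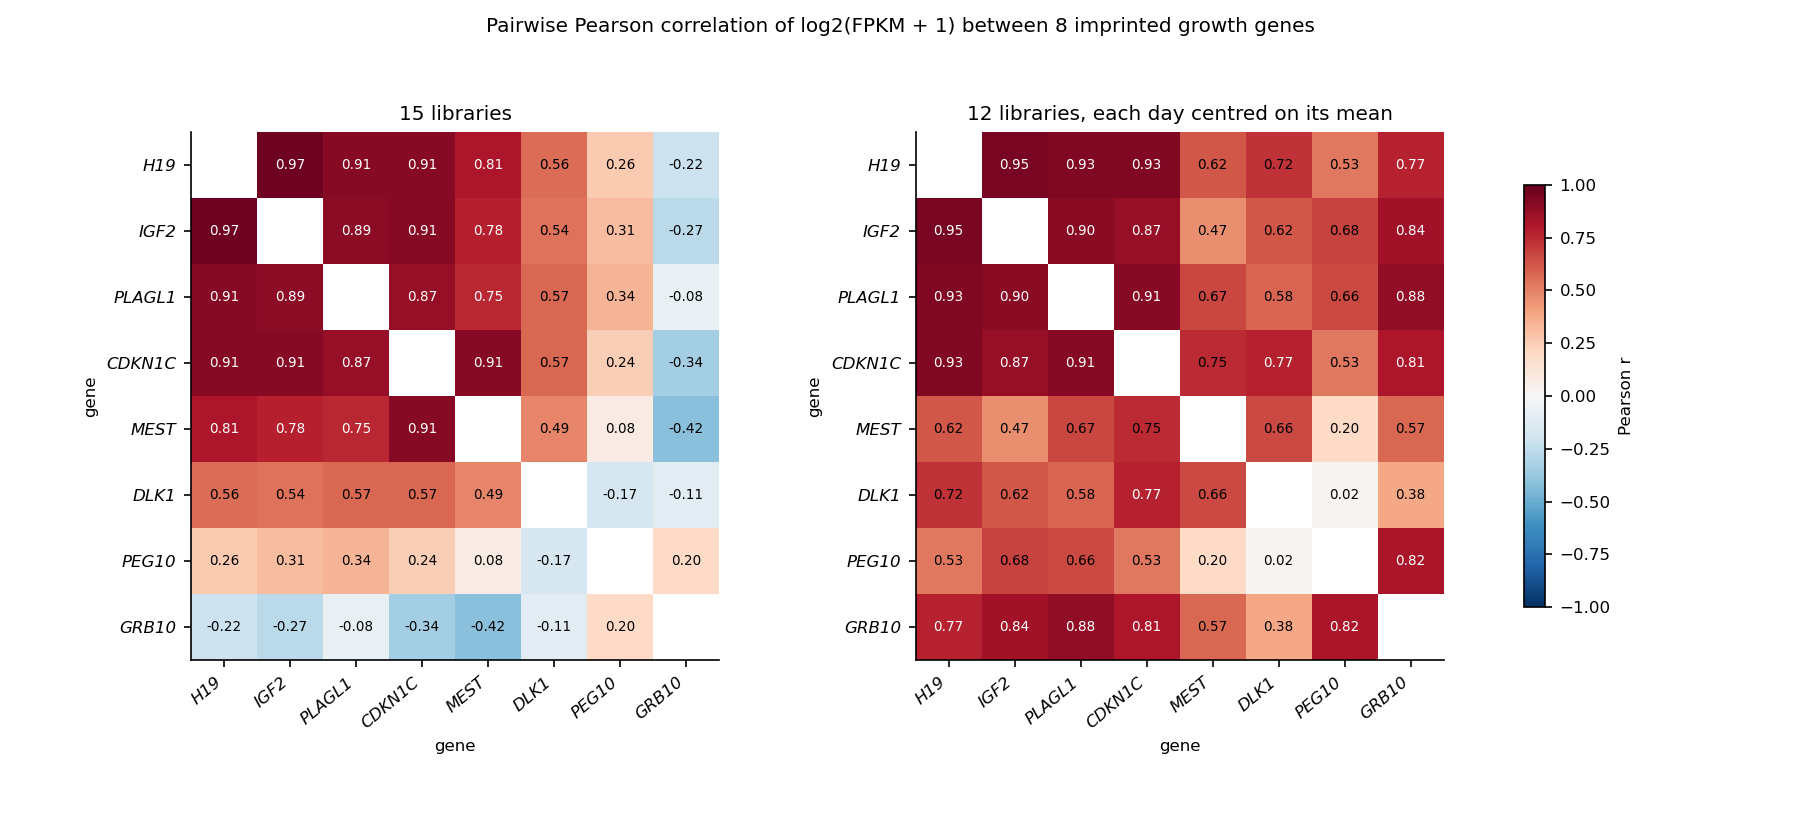
Pearson correlation of log2(FPKM + 1) between 8 of the genes over 15 libraries (left) and over the 12 libraries of days 3 to 10 after each day was centred on its mean (right), coloured from -1 (blue) to 1 (red). H19, IGF2, PLAGL1 and CDKN1C are alike in both panels, and GRB10 is negative on the left with every gene but PEG10 (0.20) and positive on the right with all 7.

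Among the 7865 genes that reached an FPKM of 10 in some library, the 5 genes most like H19 over 15 libraries were BNC1 (r = 0.980), IGF2-AS (0.972), IGF2 (0.969), PRDM6 (0.952) and CPED1 (0.951). Those most like IGF2 were BNC1 (0.974), H19 (0.969), PRDM6 (0.959), COL1A2 (0.953) and CPED1 (0.950). BNC1, a zinc finger protein found in mesothelium, had 53.7, 15.2 and 0.48 FPKM on day 10 in NP-ctrl, NP-IWP2 and passaged libraries. COL1A2, a chain of type I collagen, had 464, 174 and 27.2 FPKM on that day.

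Genes that lie beside the 10 on the genome did not move as 1 block. Of 32 neighbours listed, 17 were above the filter, and for passaged against NP-ctrl 3 were lower and 1 was higher, beside 4.4% of all genes called. IGF2-AS, an antisense RNA that overlaps IGF2 by 738 bases, fell by 2.53 on the log2 scale (SE 0.49, adjusted p = 0.0174), with 7.87, 3.01 and 0.34 FPKM on day 10 in NP-ctrl, NP-IWP2 and passaged libraries. Whether reads were counted by strand is not given in the sources used here, so reads of IGF2 and IGF2-AS over the shared bases cannot be told apart. The hairpin of MIR483, which lies inside IGF2, had at most 30 counts and was listed at 0 in all 4 passaged libraries, and INS-IGF2, which also overlaps IGF2, had 0 counts throughout. For such overlapping genes 0 counts do not show that the RNA was absent.

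DIO3, an enzyme that inactivates thyroid hormone, and its antisense RNA DIO3OS lie in the DLK1 domain and were lower in passaged cells, with log2 changes of -3.41 (SE 0.71, adjusted p = 0.0236) and -4.10 (SE 0.80, adjusted p = 0.0174). DIO3 had its peak on day 2, at 62.4 FPKM, and then 4.74, 5.68 and 1.18 FPKM on day 3 in NP-ctrl, NP-IWP2 and passaged libraries. DLK1 by contrast had 3.70 FPKM on day 2 and more on day 3. On day 10 DIO3 had 1.73, 2.79 and 0 FPKM, where DLK1 in NP-ctrl had its maximum.

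In the CDKN1C domain none of the neighbours passed the test between passaged and NP-ctrl cells. KCNQ1OT1, the non-coding RNA of that domain, had 1.77, 0.79 and 0.38 FPKM on day 10 in NP-ctrl, NP-IWP2 and passaged libraries (log2 change -1.01, adjusted p = 0.176). KCNQ1, a potassium channel gene, had the reverse order, 1.01, 2.24 and 4.42 FPKM (log2 change 1.15, adjusted p = 0.0999). PHLDA2, which limits placental growth, had 16.3 FPKM on day 0 and 1.94, 0.27 and 0.21 FPKM on day 10 and fell from day 3 to day 10 by 2.27 on the log2 scale (adjusted p = 0.0227), opposite to CDKN1C. SLC22A18, CD81 and TSSC4 had log2 changes of 0.25, 0.28 and 0.13 between passaged and NP-ctrl cells.

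Beside PEG10, SGCE overlaps it by 248 bases and had 2.92, 3.01 and 2.14 FPKM on day 10 in NP-ctrl, NP-IWP2 and passaged libraries (log2 change -0.40, adjusted p = 0.143). CASD1 had 0.40, and PPP1R9A, which regulates actin and protein phosphatase at synapses, was higher in passaged cells by 1.22 on the log2 scale (SE 0.22, adjusted p = 0.0122), with 2.73, 5.06 and 9.39 FPKM on day 10. COPG2 beside MEST had 0.06. DDC and COBL beside GRB10 had -3.15 (adjusted p = 0.145) and -0.37, and PHACTR2 beside PLAGL1 -0.36.

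Of 23 genes of the IGF and insulin axis 21 were above the filter, and for passaged against NP-ctrl 1 was called, beside 4.4% of all genes. This was STC2, higher by 2.94 on the log2 scale (SE 0.34, adjusted p = 0.00116). STC2 inhibits the proteases that release IGF from its binding proteins, and it had 1.61, 2.26 and 7.17 FPKM on day 10 in NP-ctrl, NP-IWP2 and passaged libraries. The receptor IGF1R, which carries the IGF2 signal, ranged from 10.98 to 18.7 FPKM over the 15 libraries, and IGF2R, which clears IGF2, from 5.89 to 14.1 FPKM. IGF1 itself had at most 0.03 FPKM. The median log2 change of the axis was -0.035.

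None of the 5 other cell cycle inhibitors above the filter (7 listed) was called between passaged and NP-ctrl cells, and their median was 0.30. Of 14 factors that keep or read imprints, 12 were above the filter and 0 were called for passaged against NP-ctrl. CTCF had 0.06 (adjusted p = 0.865), TRIM28 0.16 (adjusted p = 0.641) and DNMT1, which copies methylation at replication, 0.22 (adjusted p = 0.677). From day 3 to day 10, 6 of the 12 fell and 1 rose, beside 35.0% of all genes called in either direction. DNMT1 had a log2 change of -1.41 and TRIM28 of -1.58. None of 9 genes around DLK1 and Notch signalling and neither PLAG1 nor PLAGL2 was called between passaged and NP-ctrl cells, with medians of 0.07 and 0.11.

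Of 30 further imprinted genes 21 were above the filter, and their median change in passaged against NP-ctrl cells was 0.20, above 0, where that of the 8 growth genes was -1.77. Both lists were chosen with earlier results of these data known, and the difference between them was not tested. Of the further genes 1 was called, beside 4.4% of all genes. It was WT1-AS, an antisense RNA of the WT1 locus, listed at 0 in all 4 passaged libraries and at 1.70 and 0.87 FPKM on day 10 in NP-ctrl and NP-IWP2.

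Some markers of other cell types were, like H19, PLAGL1 and CDKN1C, called as lower in the passaged arm, against 4.4% of all genes called in either direction. Of 12 markers of endoderm, liver and yolk sac, 7 were lower after passaging relative to NP-ctrl and 0 higher, and their summed level ranged from 21.7 to 4491 FPKM over days 3 to 10 in NP-ctrl, from 27.6 to 1315 FPKM in NP-IWP2 and from 3.97 to 23.4 FPKM in passaged cells. FOXA2 and APOA2 were at 0 in passaged cells on day 10, and AFP and SOX17 on day 7. Of 10 mesenchyme and fibroblast markers 4 were lower, COL1A2, DCN and LUM among them, and the sum ranged from 259 to 4907 FPKM in NP-ctrl, from 230.1 to 1739 FPKM in NP-IWP2 and from 316 to 1523 FPKM in passaged cells. The passaged sum was above that of NP-ctrl on day 3, at 411 FPKM, and lowest on day 10. FN1, fibronectin, went the other way in this list, with 1027 and 1055 FPKM in passaged cells on days 5 and 7 and 298 and 239 FPKM in NP-ctrl, a difference that did not pass the test (log2 change 1.19, adjusted p = 0.146), and it makes up most of the passaged sum on those days. Of 8 epicardium and mesothelium markers 7 were above the filter and 4 were lower. The sum reached 125, 92.1 and 13.0 FPKM in the 3 arms, with passaged cells at 0.90 FPKM and TCF21 at 0 on day 10. ALDH1A2 went the other way on day 5, at 9.28 FPKM after passaging against 0.53 FPKM in NP-ctrl. It makes up most of the passaged peak of 13.0 FPKM, which fell on that day. TBX18 makes up most of the NP-IWP2 peak on day 10, at 65.1 FPKM against 40.6 FPKM in NP-ctrl. The other markers of this list were lower in NP-IWP2 than in NP-ctrl on day 10.

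Of 10 cardiomyocyte markers 3 were higher in passaged cells and 0 lower, beside the same 4.4% of all genes. Endothelium had 0 of 7 called. Its sum was 121 and 165 FPKM on days 5 and 7 in NP-ctrl and 17.9 and 31.9 FPKM in passaged cells, and 120, 122 and 122 FPKM on day 10 in NP-ctrl, NP-IWP2 and passaged libraries. KDR alone gave 119 FPKM of the last value, and TEK had 22.8 FPKM in NP-ctrl and 0.68 FPKM in passaged cells on that day. Proliferation had 0 of 10 called with day 10 sums of 158, 167 and 53.3 FPKM, pluripotency had 1 of 8, which was SOX2, higher, and neural markers 0 of 3. The part of these cell types in the levels of the imprinted genes was not tested. In bulk RNA fewer cells of a type and less RNA per cell cannot be told apart.

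**Figure D5:**
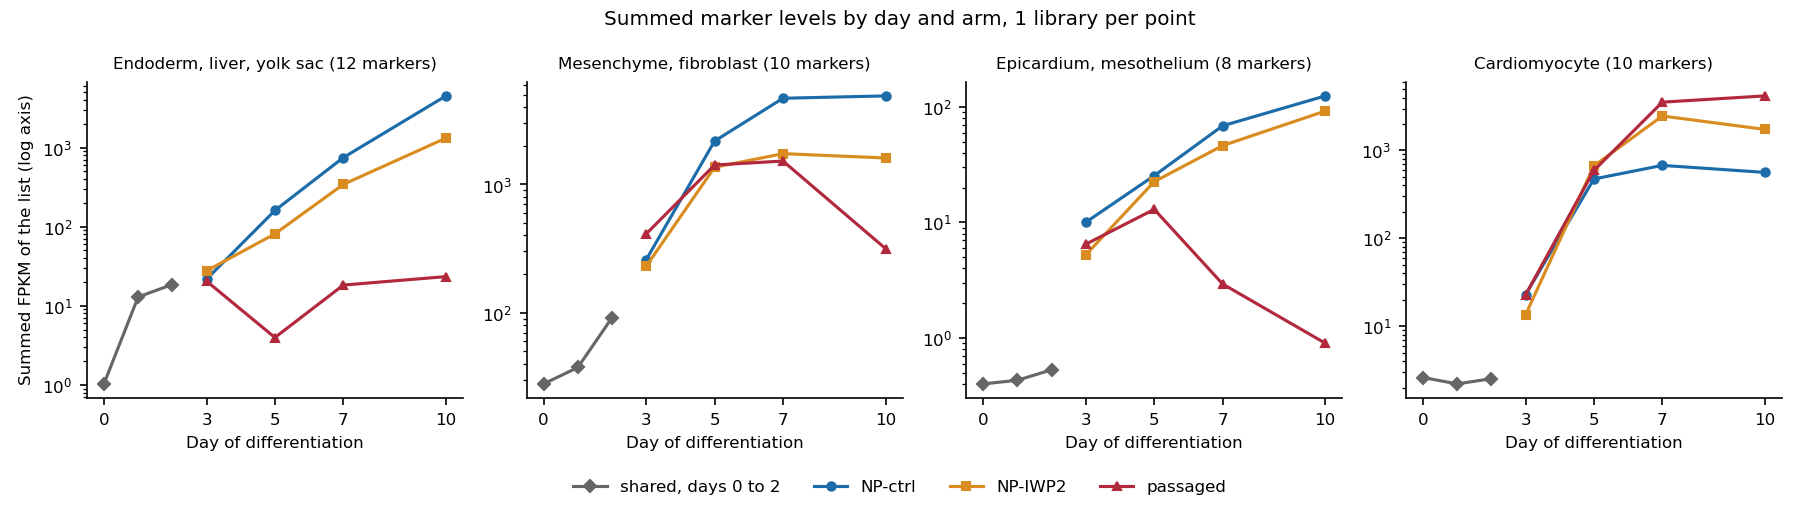
Summed FPKM (log axis) of 4 marker lists against day of differentiation, with 1 library per point and the arms coloured as before. Endoderm, mesenchyme and epicardium sums end lowest in passaged cells on day 10, at 23.4, 316 and 0.90 FPKM, and the cardiomyocyte sum ends highest there, at 4177 FPKM.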

How the data were processed

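RNA was sequenced in 15 libraries, and groups were taken from the labels (arm and day). The authors trimmed reads with cutadapt (1.9.1), aligned them to hg38 with HISAT2 (2.0.1) and counted reads per gene with HTSeq (0.6.1), per the labels; a long-read kit is also named, and the strand setting is not given in the sources used here. Counts were deposited for 60605 genes, all whole. FPKM, also deposited, equals the count scaled by exonic length and library total, and recomputing it differed by at most 0.005. The 10 genes and all lists were chosen with earlier results of these data known.

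The 21206 genes that reached an FPKM of 1 in some library were tested with edgeR (4.0.16, R 4.3.3) with TMM scaling, calling adjusted p under 0.05, and limma (3.58.1) and DESeq2 (1.42.0) were alternatives. Other alternatives were median-of-ratios scaling, no filter, only the compared arms, leaving out each day or arm, and for single libraries a pseudocount of 0.1 in place of 1, TPM, and a threshold of 2. The scripts were tested on simulated data. RB1 and IGF2R stand in 2 pathway lists and TCF21 in 2 marker lists. All 10 genes were named; of list genes, every neighbour above the filter and up to 4 called genes per list with the largest change were, and the others named (receptors, imprint factors and marker genes) were added after their values were seen. A gene at or under 3 counts was set to 3 for a fold. Each SE given for an edgeR fit is the size of the log2 change divided by the square root of its F statistic. Promoter and miRNA sequences are from RefSeq (GRCh38.p14), and the motif search used the hg38 genome. P-values measure the spread between days or arms, and not between replicate cultures of an arm and day. Precision is limited by 13254723 to 20250115 counts per library.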

Additional observations from a re-analysis of the deposited data

How the results depend on the processing

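Counts of called genes, among 8 with the filter and 10 without, moved with the filter, the days and arms used and the tool. For passaged against NP-ctrl (3 called) limma gave 0, DESeq2 4, only the 2 compared arms 0 and no filter 5. Leaving out each day gave 0 to 5, the least without day 7 and the most without day 3. For NP-IWP2 against NP-ctrl (0 called) no filter gave 3 and only the 2 compared arms gave 1, PLAGL1. For passaged against NP-IWP2 (0 called) DESeq2 gave 1, no filter 4, and leaving out each day 0 to 3. For day 10 against day 3 (3 called) no filter gave 9 of the 10 genes, and leaving out each arm 1 to 6. For the slope difference of passaged against NP-ctrl (0 called) DESeq2 gave 4, no filter 2 and leaving out each day 0 to 1, and for that of passaged against NP-IWP2 (0 called) DESeq2 gave 1 and leaving out each day 0 to 1. Under a threshold of 2, single-day changes summed over days went from 10 to 1 for NP-IWP2 against NP-ctrl. Those of day 10 against day 2, summed over arms, went from 16 to 10. Of 21 fitted log2 changes picked for this check, none turned its sign (0 of 21), while over all alternatives 17 of their calls were lost and 20 gained. Other pairs of gene and contrast, DLK1 in NP-IWP2 against NP-ctrl among them, were not part of this check. On TPM the median of all genes shifted to -0.38 in passaged against NP-ctrl cells on day 10. The cause of these changes was not tested. Each arm and day has 1 library, so the arm contrasts were matched by day and no block by replicate could be fitted.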
